A study of Mus musculus with 12 samples.

Results

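Mouse E14 ES cells transfected to deplete Mbd3 were set directly against the same cells transfected to deplete Mbd2, to describe which genes differ between KDs of these MBD proteins. The members are the 2 arrays labelled Mbd3 KD and the 2 labelled Mbd2 KD, chosen by their labels from the 12 arrays of the series. The cells were grown without feeders in serum and LIF, and RNA was taken 48 hr after transfection of an esiRNA, a pool of short interfering RNAs made enzymatically from one transcript. Replicate 1 of both KDs was hybridised on the slide called slide 1 here, and replicate 2 of both on slide 3, so each replicate number gives 1 difference within a slide. The EGFP KD control arrays entered no value below except the alternatives with all 12 arrays or the deposited table, given in the closing section. The study describes the replicates as biological. The p-values rest on the spread between duplicate arrays that is left after shifts shared by the arrays of a slide are removed. KD lowers a transcript in a transfected population and does not delete the gene.

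Mbd3 and Mbd2 are closely related proteins with a methyl-CpG binding domain. Each is a subunit of NuRD, a complex that joins the nucleosome remodeler Chd4 to the histone deacetylases Hdac1 and Hdac2, and a given NuRD complex holds one of them or the other. Mbd2 binds methylated CpG strongly, whereas the domain of mammalian Mbd3 binds it weakly. In ES cells Mbd3 is known for roles in silencing of trophectoderm genes and in exit from pluripotency.

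CpG is the sequence that the methyl-CpG binding domain is named for, so the 250 bases before the transcription start of 3 genes that separated the KDs, and of Mbd3 itself, are shown with every CG in capitals. They come from RefSeq windows on GRCm38.p6, read 5′ to 3′ on the gene's strand, which held a window for 7 of the 11 genes called below. Ppp2r2c holds the most CG of these windows and Padi4 the fewest, and Slc38a5 was the gene with the largest difference among those higher in Mbd3 KD.
Slc38a5, chrX:8271131-8271380, plus strand: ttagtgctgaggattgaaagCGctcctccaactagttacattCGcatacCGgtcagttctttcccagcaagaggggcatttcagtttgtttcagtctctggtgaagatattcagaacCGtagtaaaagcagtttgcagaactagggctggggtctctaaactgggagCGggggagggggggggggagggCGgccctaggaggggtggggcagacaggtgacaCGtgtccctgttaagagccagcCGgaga
Ppp2r2c, chr5:36868260-36868509, plus strand: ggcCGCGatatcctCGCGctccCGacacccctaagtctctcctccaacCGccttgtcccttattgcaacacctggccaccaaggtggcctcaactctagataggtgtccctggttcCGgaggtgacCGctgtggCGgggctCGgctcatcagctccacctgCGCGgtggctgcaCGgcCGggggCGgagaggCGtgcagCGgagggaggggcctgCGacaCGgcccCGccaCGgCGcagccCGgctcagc
Padi4, chr4:140774204-140774453, minus strand: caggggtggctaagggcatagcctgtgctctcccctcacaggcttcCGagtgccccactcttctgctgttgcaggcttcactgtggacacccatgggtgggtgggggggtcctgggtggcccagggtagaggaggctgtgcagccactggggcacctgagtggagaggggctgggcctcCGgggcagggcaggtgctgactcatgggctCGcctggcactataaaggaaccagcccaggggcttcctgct
Mbd3, chr10:80399532-80399781, minus strand: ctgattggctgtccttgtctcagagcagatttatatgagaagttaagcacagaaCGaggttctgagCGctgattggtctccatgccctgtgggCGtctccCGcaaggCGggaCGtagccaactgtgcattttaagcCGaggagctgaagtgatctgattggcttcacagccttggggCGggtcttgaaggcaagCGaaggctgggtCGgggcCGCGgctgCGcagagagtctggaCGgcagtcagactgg

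The window of Slc38a5 holds 8 CG, that of Ppp2r2c 23, that of Padi4 3 and that of Mbd3 14. Across all RefSeq windows of the same length, 92.1% hold at least 1 CG and the median is 6, while over the 13970 genes tested that have a window the median is 12.5. No methylation was measured on these arrays, and only 53.1% of the genes tested have a window, so no comparison of CpG content between gene sets is given.

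The arrays were of similar brightness and mostly well measured. The 75th percentile of the processed signal lay between 1810.5 and 2413.9 on the 4 arrays, and between 76.9% and 87.4% of probes were well above background. Levels below are log2 of the signal over that 75th percentile, so 0 is a bright probe and -4.86 the floor. All 9 ES cell markers on a fixed list were tested and 8 were well above background on all 4 arrays, with a summed linear signal of 150 to 194 in Mbd3 KD and 177 to 181 in Mbd2 KD. The probe for Nanog was near the floor, at -4.53 and -4.86 in Mbd3 KD and -3.86 and -4.43 in Mbd2 KD. The summed signal of 7 fibroblast markers was 10.2 to 10.6 in Mbd3 KD against 5.96 to 6.76 in Mbd2 KD, and Postn did not pass the filter on dim probes. Of the 7, 1 had an unadjusted limma p under 0.05. A longer list of fibroblast and mesenchyme markers, with 14 tested, had 1 higher and 1 lower at that p, and a median log2 difference of 0.055. The part of the difference in summed signal in other results was not tested. In bulk RNA, fewer cells of a type and less RNA per cell cannot be told apart.

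Mbd3 was strongly depleted in Mbd3 KD. Its brighter probe read 1.34 and 1.56 in Mbd3 KD and 4.29 and 4.35 in Mbd2 KD. Both Mbd3 KD arrays lay far below both Mbd2 KD arrays, a 7.32-fold difference (log2 difference -2.87 ± 0.16 (SE, n = 2 per group), limma adjusted p = 0.041). The dimmer Mbd3 probe read -1.82 and -1.28 against 1.51 and 1.04, a log2 difference of -2.82.

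The Mbd2 transcript did not give the mirror image. One Mbd2 probe read -0.52 and -0.71 in Mbd3 KD and -0.85 and -0.85 in Mbd2 KD, a log2 difference of 0.23 ± 0.20 (SE, n = 2 per group, limma adjusted p = 0.70). The other read -1.08 and -0.73 in Mbd3 KD against -1.20 and -2.73 in Mbd2 KD. By this probe Mbd2 was low on slide 3 alone, where Mbd2 KD lay below Mbd3 KD by 2.00 on the log2 scale, against 0.12 on slide 1.

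Tet1, the dioxygenase that oxidises methylcytosine, was low on the array labelled Mbd2 KD replicate 1. Its brighter probe read 2.17 and 1.96 in Mbd3 KD, 0.28 on that array and 1.88 in replicate 2 of Mbd2 KD. The second Tet1 probe was again lowest there, at -1.06, against 0.38 in replicate 2 and -0.07 and 0.29 in Mbd3 KD. The low Mbd2 and the low Tet1 reading therefore fall on different arrays with the same label. The label of replicate 1 goes against both genes and may be wrong, in which case the slide 1 differences would not be Mbd3 KD against Mbd2 KD. The study reports efficient Mbd2 KD by RT-qPCR and by Western blotting, so the doubt is about these arrays. The calls and list counts below are also given with the slide 1 Mbd2 KD array left out. In that fit the Mbd3 KD and Dnmt1 KD arrays set the offset between the slides, so Dnmt1 KD values enter its differences.

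**Figure D1:**
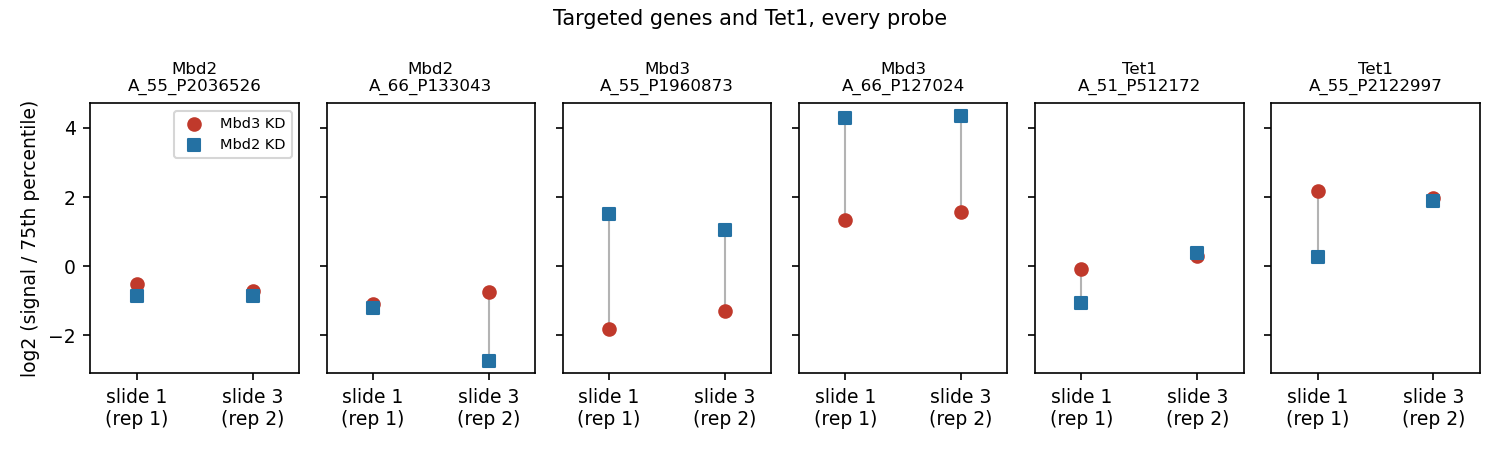
Log2 signal over the array's 75th percentile (vertical axis) for every probe of Mbd2, Mbd3 and Tet1, by slide (horizontal axis), with 1 array per point, circles for Mbd3 KD, squares for Mbd2 KD and lines joining arrays of one slide. Both Mbd3 probes are low in Mbd3 KD on both slides, the second Mbd2 probe is low in Mbd2 KD on slide 3 only, and both Tet1 probes are low in Mbd2 KD on slide 1 only.

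The slides gave different sets of large differences. Of 26302 genes tested, 530 were at least 2-fold higher and 860 at least 2-fold lower in Mbd3 KD on slide 1 while differing by less than 0.25 (log2) on slide 3. In the reverse pattern, 99 genes were higher and 577 lower on slide 3 alone. Only 198 genes (0.753%) differed at least 2-fold in one direction on both slides, 124 higher (0.471%) and 74 lower (0.281%) in Mbd3 KD. Both Mbd3 KD arrays lay above both Mbd2 KD arrays for 2995 genes (11.4%) and below them for 3433 (13.1%), 24.4% of genes in all. Across 26199 genes measured on all 4 arrays, the difference on slide 1 and that on slide 3 had a Pearson r of 0.185 and a Spearman rho of 0.208. These are correlations across genes, which are not independent replicates. The sign was shared by 14545 genes (55.3%).

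**Figure D2:**
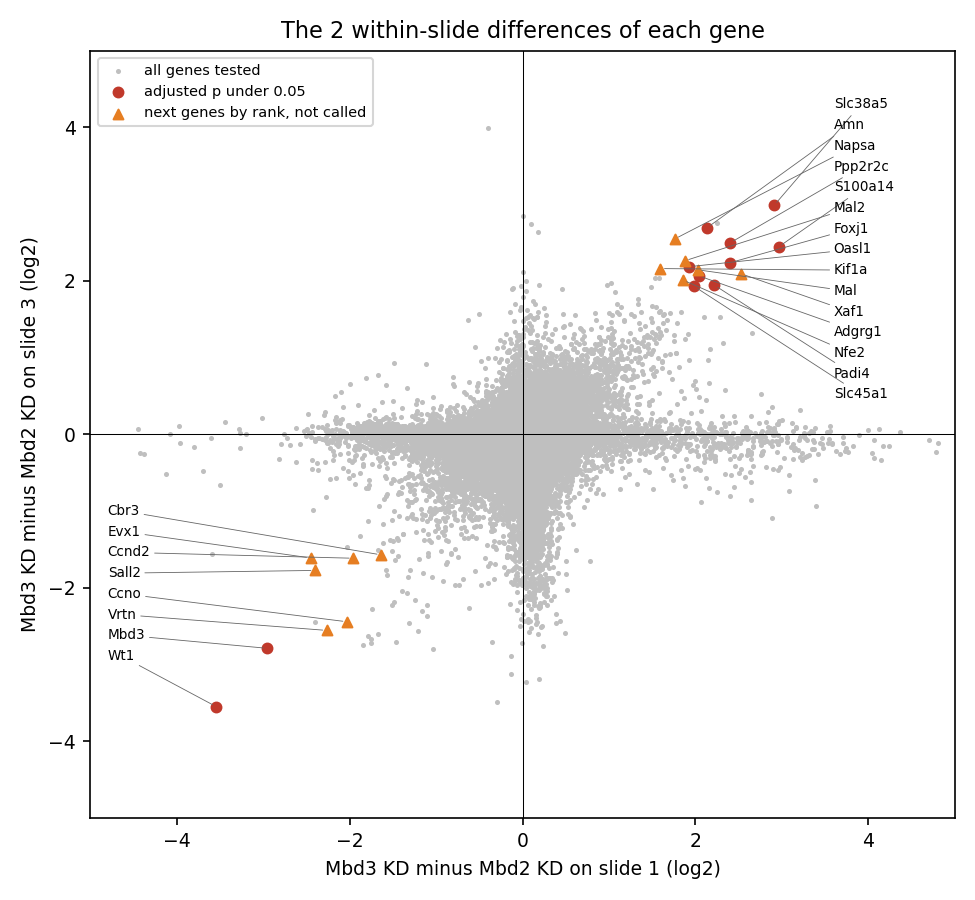
Each point is a gene, with its log2 difference Mbd3 KD minus Mbd2 KD on slide 1 (horizontal axis) and on slide 3 (vertical axis). Grey points spread along both axes, which are genes that differ on 1 slide alone, and the 11 genes with an adjusted p under 0.05 (red circles) and the next genes by rank (orange triangles) lie in the corners where both slides differ.

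Of these genes, 11 (0.0418%) had an adjusted p under 0.05, with 9 (0.0342%) higher and 2 (0.0076%) lower in Mbd3 KD. They are named in full. The smallest within-slide difference among the 11 was 1.93 in log2 units, and their adjusted p-values lay between 0.041 and 0.043, close to the threshold. Each of the 11 thus had a wide gap on both slides. A fit without 1 array therefore keeps their direction and rough size by selection, which is not a further result. With the array labelled Mbd2 KD replicate 1 left out, their differences kept the same direction and similar sizes, and the adjusted p-values rose to between 0.056 and 0.058, so that 0 genes were called and 2993 had an unadjusted p under 0.05 (11.4%). The count was also 0 when Mbd3 KD replicate 1 was left out or when the spread was estimated from these 4 arrays alone, was 324 with Mbd3 KD replicate 2 left out, and was 11, of which 1 was higher and 0 were shared with the genes named here, with Mbd2 KD replicate 2 left out.

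Transporters and membrane proteins made up part of the genes higher in Mbd3 KD. Slc38a5, a glutamine transporter of the system N family, read 1.50 and 1.60 in Mbd3 KD and -1.41 and -1.38 in Mbd2 KD. Each pair of replicates lay close together, and the KDs differed by 2.95 ± 0.17 (SE, n = 2 per group), a 7.71-fold higher signal in Mbd3 KD (limma adjusted p = 0.041). Slc45a1, a sugar transporter, read -0.80 and -1.08 against -2.79 and -3.01, and was 3.88-fold higher. Adgrg1, an adhesion G protein-coupled receptor, read -1.12 and -1.33 against -3.16 and -3.39, and was 4.15-fold higher. Amn, the membrane anchor that carries the endocytic receptor cubilin to the apical surface, read 0.14 and 0.61 against -1.99 and -2.08, and was 5.32-fold higher. For each of these 4 genes the groups did not overlap, as for 11.4% of all genes in this direction. A call favours such separation, so it is not a further result.

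Enzymes, a calcium-binding protein and a transcription factor made up the rest. Ppp2r2c, a regulatory B subunit of the phosphatase PP2A, read 0.90 and 0.87 in Mbd3 KD and -1.50 and -1.62 in Mbd2 KD, and was 5.46-fold higher. S100a14, an epithelial member of the S100 calcium-binding family, read -0.71 and -0.67 against -3.67 and -3.11, and was 6.51-fold higher. Padi4, which converts arginine to citrulline in histones and other proteins, read -0.85 and -0.85 against -3.07 and -2.79, and was 4.23-fold higher by its brightest probe. The mean over the Padi4 probes gave a smaller log2 difference of 1.34, so its probes disagree in size. Oasl1, an interferon-inducible relative of the oligoadenylate synthetases, read -0.48 and -0.21 against -2.41 and -2.39, and was 4.16-fold higher. Foxj1, the regulator of motile cilia, was dim throughout, at -2.05 and -1.90 against -4.45 and -4.14, and was 5.00-fold higher. All 5 were well above background on all 4 arrays. Their groups did not overlap either, which the call itself favours and which held for 11.4% of all genes in this direction.

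Apart from Mbd3, Wt1 was the gene called lower in Mbd3 KD. Wt1 encodes a zinc finger transcription factor of kidney and gonad development. It read -4.17 and -4.79 in Mbd3 KD, with 1 of these 2 readings well above background, and -0.62 and -1.24 in Mbd2 KD. The within-slide differences were -3.55 and -3.55 (limma adjusted p = 0.043). The lower reading in Mbd3 KD lay next to the floor of -4.86, so the size of the difference is uncertain. Wt1 passed the filter on dim probes through Mbd2 KD alone, the group in which it is high, so its call is not independent of that filter.

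The other arrays on the same slides were set beside these differences. On slide 1 the Dnmt1 KD array was nearer to Mbd2 KD than to Mbd3 KD for 9 of 9 genes called higher, and on slide 3 again for 9 of 9. Slc38a5 read -1.36 and -0.99 in Dnmt1 KD, and Foxj1 -3.99 and -4.01. Wt1 read -0.46 and -0.91 in Dnmt1 KD, also near Mbd2 KD. Ppp2r2c read -0.40 in Dnmt1 KD on slide 3, about midway between 0.87 in Mbd3 KD and -1.62 in Mbd2 KD. Chd4 KD replicate 2, on slide 3, was nearer to Mbd3 KD for 8 of 9. S100a14 read 0.62 in Chd4 KD, above both Mbd3 KD arrays, and Foxj1 -0.81. The exception was Slc38a5, at -0.44 in Chd4 KD, nearer to Mbd2 KD. Among the 124 genes at least 2-fold higher on both slides, Dnmt1 KD was nearer to Mbd2 KD for 113 on slide 1 and 107 on slide 3, and Chd4 KD nearer to Mbd3 KD for 95. The genes at least 2-fold lower on both slides, Mbd3 aside, were split. There Chd4 KD was nearer to Mbd3 KD for 34 and to Mbd2 KD for 39, Wt1 among the latter, and Dnmt1 KD was nearer to Mbd2 KD for 66 of 73 on slide 1 and 48 of 72 on slide 3. The genes counted were chosen for a large gap between Mbd3 KD and Mbd2 KD, and the same shares over all genes tested are not given. The Dnmt1 KD arrays also entered the estimate of the spread. The positions are therefore a description and do not test a likeness between KDs.

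**Figure D3:**
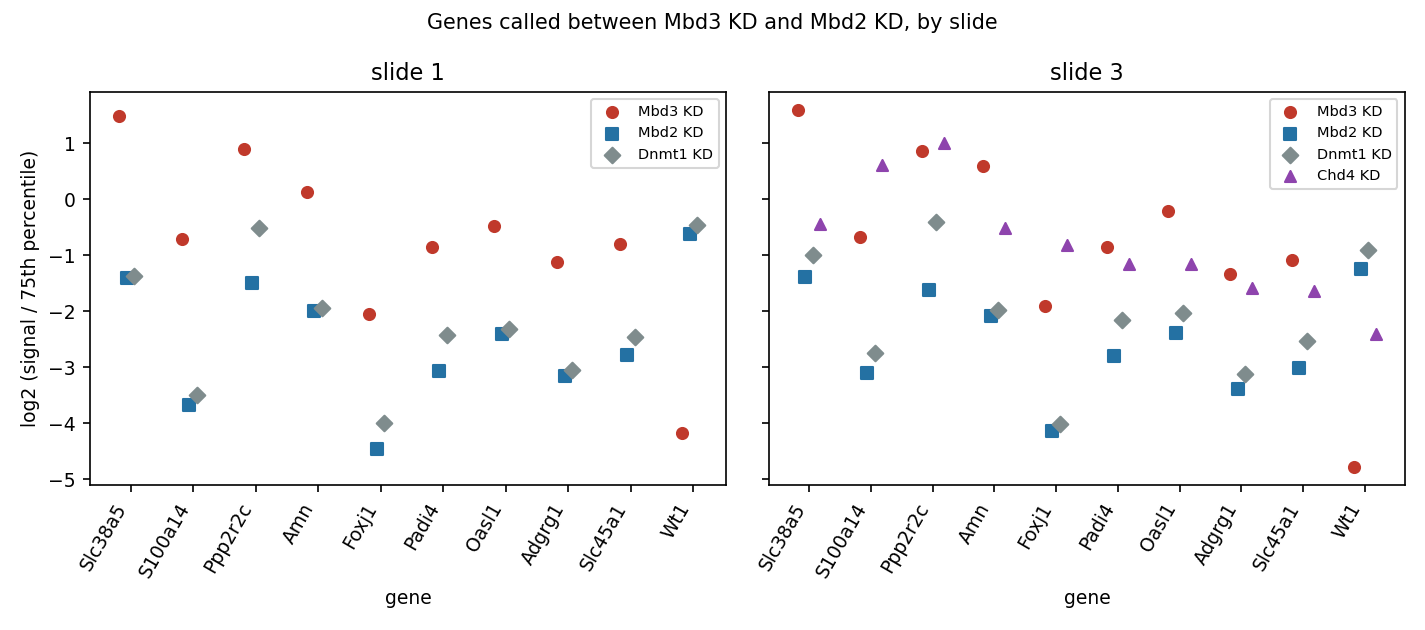
Log2 signal over the 75th percentile (vertical axis) for the 10 called genes other than Mbd3 (horizontal axis), with 1 array per point and 1 panel per slide. Mbd3 KD (circles) lies above Mbd2 KD (squares) for 9 genes and below it for Wt1, Dnmt1 KD (diamonds) lies nearer to Mbd2 KD, and on slide 3 Chd4 KD (triangles) lies nearer to Mbd3 KD for 8 of the 9.

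The genes next in rank did not pass the test and are given as values. Xaf1, an interferon-inducible antagonist of XIAP, read 1.28 and 1.33 in Mbd3 KD and -1.25 and -0.76 in Mbd2 KD (limma adjusted p = 0.097). Napsa, an aspartic protease, read 1.12 and 1.75 against -0.64 and -0.80. Nfe2, a basic leucine zipper factor of megakaryocytes, read -0.80 and -0.42 against -2.65 and -2.43, with the smallest adjusted p of the genes next in rank, 0.059. The membrane proteolipids Mal and Mal2 and the kinesin Kif1a had log2 differences of 2.09, 2.07 and 1.88.

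In the other direction, the genes next in rank were a reductase, cyclins and developmental factors. Ccno, a cyclin-like protein of multiciliated cells, read -1.99 and -1.49 in Mbd3 KD and 0.05 and 0.95 in Mbd2 KD (limma adjusted p = 0.072). Ccnd2, a D-type cyclin, read -1.80 and -1.09 against 0.15 and 0.53, and Cbr3, a carbonyl reductase, read 2.38 and 2.29 against 4.01 and 3.86. The developmental factors Vrtn, Sall2 and Evx1 had log2 differences of -2.41, -2.09 and -2.03. In Mbd3 KD, Vrtn and Evx1 were well above background on 1 of 2 arrays, and both read the floor of -4.86 on replicate 2. Both passed the filter on dim probes through Mbd2 KD alone, the group in which they are high, so they give no support.

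Few functional groups could be judged by calls, since 24 of the 30 gene lists examined held no called member and 6 held 1. The transporter, S100, PP2A, cyclin and antioxidant lists were drawn up around genes known from earlier results of these arrays. The lists are therefore described by members with an unadjusted p under 0.05 and the same sign on both slides, which across all genes tested was 1229 higher (4.67%) and 1226 lower (4.66%), 9.33% in all, with a median log2 difference of -0.051. These are not calls at the adjusted threshold. Of the genes tested, 2232 passed the filter on dim probes through Mbd2 KD alone and 701 through Mbd3 KD alone, so a member that passed through 1 group is counted but gives no support. With the slide 1 Mbd2 KD array left out, the mark is an unadjusted p under 0.05 alone, which 3.23% of all genes reached as higher and 8.16% as lower.

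Trophectoderm genes were the list, of the 30, with the largest share past that mark. Of 16 members tested, 8 were higher and 1 was lower (56.2%), with a median log2 difference of 0.51. Krt19, a keratin of simple epithelia, read 1.19 and 1.43 in Mbd3 KD and -1.09 and -0.11 in Mbd2 KD, a difference of 1.91 ± 0.23 (SE, n = 2 per group, limma adjusted p = 0.097). Rhox6, a placental homeobox gene, read 1.42 and 1.94 against -0.07 and 0.48. Its cluster neighbour Rhox9 read 2.62 and 2.62 against 1.32 and 1.61, and close paralogs in the Rhox cluster may share probes. The transcription factors Esx1, Tfap2c and Tead4 differed by 0.97, 0.77 and 0.62, Krt8 by 1.25 and Ly6a by 0.63. Hand1, a factor of trophoblast giant cells, was dim and lower, at -4.37 and -4.46 against -3.68 and -3.39. Cdx2, Gata3 and Elf5, defining regulators of the lineage, did not pass the filter on dim probes. Of a fixed list of trophectoderm markers, 4 passed: Eomes, Hand1 and the keratins Krt8 and Krt18. Of these, 2 had an unadjusted limma p under 0.05, and Hand1 went against Krt8. The summed linear signal of the 4, in which bright members weigh most, was 4.40 to 4.75 in Mbd3 KD and 2.99 to 3.79 in Mbd2 KD. The summed linear signal of the 3 primed epiblast or mesoderm markers that passed, Pou3f1, Otx2 and Mixl1, was 4.91 to 5.39 in Mbd3 KD against 3.06 to 4.01 in Mbd2 KD. Of these 3, 1 had an unadjusted limma p under 0.05. A longer list of primed epiblast and mesoderm genes, with 15 tested, had 3 higher and 1 lower past the mark, and a median of 0.008. The part of these markers in the difference of the trophectoderm list was not tested. With the slide 1 Mbd2 KD array left out, again 8 of 16 were higher and 1 lower.

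Epithelial adhesion genes also held more higher than lower members. Of 38 tested, 9 were higher and 3 lower, with a median of 0.14. Cldn7, a tight junction claudin, read 1.69 and 2.37 in Mbd3 KD and 0.11 and 0.34 in Mbd2 KD, a difference of 1.81 (limma adjusted p = 0.080). Vim, the intermediate filament of mesenchymal cells, was lower, at 3.07 and 2.77 against 4.14 and 4.17. Krt8 and Krt19 also belong to this list. Cldn6, Tjp3 and Cdh1, the E-cadherin gene, differed by 1.05, 0.88 and 0.58, while the repressor Snai1 differed by -0.56. Without the slide 1 Mbd2 KD array, 7 were higher and 2 lower.

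**Figure D4:**
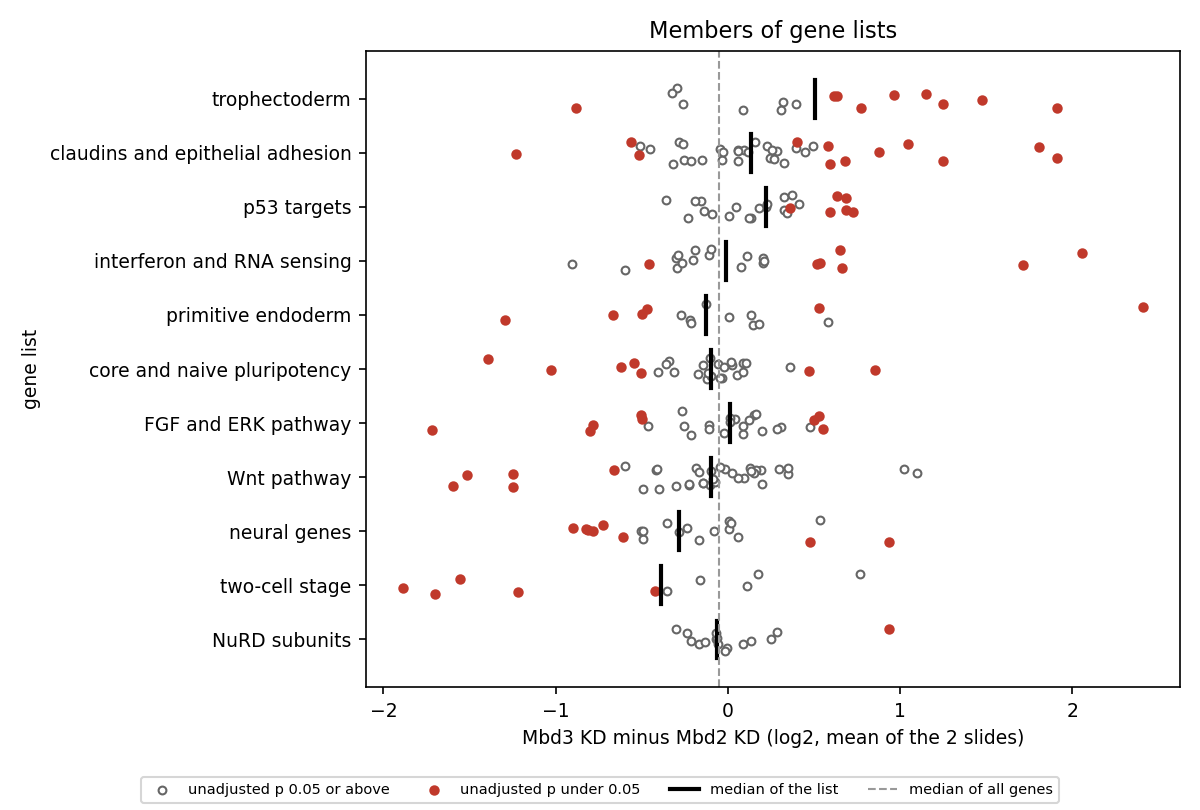
Log2 difference Mbd3 KD minus Mbd2 KD, the mean over both slides (horizontal axis), for members of 11 gene lists (vertical axis), with filled points for an unadjusted p under 0.05, open points for the others, a bar at each list's median and a dashed line at the median of all genes, -0.051. Trophectoderm members lie mostly to the right with a median of 0.51, two-cell members mostly to the left with a median of -0.39, and NuRD subunits close to 0 apart from Chd5.

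Members of the two-cell stage list that were past the mark lay in the opposite direction. Of 10 tested, 0 were higher and 5 were lower, with a median of -0.39. The sign was shared by both slides for 6 of the 10 (60%), against 55.3% of all genes tested. Zscan4c read -1.39 and -0.48 in Mbd3 KD and -0.06 and 1.59 in Mbd2 KD. Zscan4f read -0.43 and -0.12 against 0.88 and 2.34, and Zscan4a -0.96 and -0.98 against -0.48 and 0.98. The Zscan4 genes are near-identical copies that a probe may not tell apart, so they do not count as separate observations. They varied between replicates, with the highest signal in replicate 2 of Mbd2 KD. Tcstv3 was not well above background on either Mbd3 KD array and was at least 2.93-fold higher in Mbd2 KD, through which alone it passed the filter, so it gives no support to the count. Eif1a differed by -0.42. In the fit that omits the slide 1 Mbd2 KD array, 4 were lower and the median was -0.67.

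Targets of p53 were higher in Mbd3 KD or did not pass. Of 24 tested, 6 were higher and 0 were lower, with a median of 0.22. Btg2, an antiproliferative factor, read -0.82 and -0.84 in Mbd3 KD and -1.53 and -1.58 in Mbd2 KD. Perp, a desmosome-associated protein, read 1.95 and 1.63 against 1.36 and 0.84. Zmat3, Ccng1, Trp53inp1 and Bbc3, the gene of the death factor Puma, differed by 0.68, 0.63, 0.59 and 0.36, and their adjusted p-values were all 0.22 or higher. Without the slide 1 Mbd2 KD array, 3 were higher and 0 lower.

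The interferon and RNA sensing list held Oasl1 and was otherwise mixed. Of 22 tested, 6 were higher and 1 lower, but the median was -0.01. Rsad2, an antiviral enzyme, read -3.03 and -3.27 in Mbd3 KD and was at the floor on both Mbd2 KD arrays. The size of its difference is therefore uncertain, and it is not taken as support for the count. Psmb8, an immunoproteasome subunit, read -3.06 and -2.74 against -3.51 and -3.33, whereas Ifitm3, which blocks viral entry, was lower at 2.87 and 2.67 against 3.24 and 3.22. Ifit1, Ifit2 and Ifit3 did not pass the filter on dim probes. In the fit that omits the slide 1 Mbd2 KD array, 3 were higher and 1 lower.

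Wnt pathway genes past the mark were all lower in Mbd3 KD, 5 of 37 tested, with a median of -0.10. Sp5, a direct target of beta-catenin, read -2.88 and -2.78 in Mbd3 KD and -1.44 and -1.19 in Mbd2 KD (limma adjusted p = 0.075). Lef1, a DNA-binding partner of beta-catenin, read -2.68 and -2.27 in Mbd3 KD, a log2 difference of -1.60. The receptors Fzd10 and Fzd2 each differed by -1.25, and the ligand Wnt6 by -0.66. Without the slide 1 Mbd2 KD array, 7 were lower and 0 higher.

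Pluripotency genes and the FGF and LIF pathways split in direction. Of 28 core and naive pluripotency genes, 2 were higher and 5 lower. Gbx2, a LIF target, read -0.09 and -0.38 in Mbd3 KD and 1.52 and 0.78 in Mbd2 KD, and Dppa3, also called Stella, read -0.63 and -0.73 against 0.40 and 0.30. Tbx3 and Klf4 were higher by 0.86 and 0.47. In the FGF and ERK list, 3 of 27 were higher and 5 lower: Myc read -0.76 and -0.79 against 0.64 and 1.25, and the ERK feedback phosphatase Dusp6 read 1.59 and 1.80 against 2.44 and 2.51. With the slide 1 Mbd2 KD array left out, 1 pluripotency gene was higher and 3 were lower, and 0 FGF and ERK genes were higher and 2 were lower.

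Other signalling and lineage lists had members on both sides. Of 32 TGF-beta, Nodal and BMP genes, 3 were higher and 3 lower. Inhbb, an activin subunit, read 0.14 and 0.28 in Mbd3 KD and 1.67 and 1.65 in Mbd2 KD (limma adjusted p = 0.072), and Lefty1, a Nodal inhibitor, read 1.49 and 1.95 against 0.53 and 1.06. Of 21 neural genes, 2 were higher and 6 lower, with a median of -0.28. Nefl, a neurofilament, read 1.21 and 1.02 against 2.39 and 1.49. Of 15 primitive endoderm genes, Amn and Hnf4a were higher and 4 were lower, among them Cubn, the partner of Amn, at -4.76 and -3.99 against -2.83 and -3.34. Imprinted genes had 5 of 36 higher and 0 lower, led by the transporter Slc22a18 at 0.77 and 0.53 against -0.38 and -0.46. The 36 imprinted genes nonetheless had a median of -0.05, that of all genes tested. With the slide 1 Mbd2 KD array left out, the TGF-beta, Nodal and BMP list had 3 higher and 3 lower, and the neural list 1 higher and 4 lower. Primitive endoderm genes then had 1 higher and 3 lower, and imprinted genes 5 higher and 2 lower.

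Subunits of NuRD other than the MBD proteins gave small differences, and 0 of 16 tested were called by limma. At an unadjusted p under 0.05 Chd5, a Chd4 paralog of the nervous system, was the 1 subunit past the mark, at 0.04 and -0.01 in Mbd3 KD and -0.77 and -1.07 in Mbd2 KD (limma adjusted p = 0.29). The other subunits differed by between -0.30 for Hdac2 and 0.29 for Mta3. Chd4 read 3.85 and 4.46 against 4.19 and 4.26, and Hdac1 4.78 and 5.51 against 4.92 and 5.38. Mta2, a scaffold subunit, differed by -0.22 ± 0.17 (SE, n = 2 per group), and the histone chaperones Rbbp4 and Rbbp7 by -0.13 and -0.07. Gatad2a and Gatad2b, which link the MBD protein to Chd4, differed by -0.02 and -0.07. The remaining subunits Mta1, Zfp219, Zmynd8, Sall4, Kdm1a and Cdk2ap1 had differences of -0.17, -0.24, -0.06, 0.09, 0.13 and 0.25.

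Among 11 MBD family genes tested, Mbd3 was the member called, and 10 are given here. Mbd4, a thymine glycosylase, differed by 0.52 on slide 1 and -1.04 on slide 3. Mbd1, Mbd6, Setdb1, Baz2a, Zbtb33, Mbd3l1 and Mbd3l2 had differences of 0.04, -0.04, 0.12, 0.03, 0.10, 0.06 and -0.06. Mbd5 did not pass the filter on dim probes. In the DNA methylation machinery, 2 of 16 genes were past the mark, both lower: Dnmt3b, a de novo methyltransferase, at 4.14 and 4.39 in Mbd3 KD against 4.76 and 4.94, and Gadd45b at 0.22 and 0.46 against 0.64 and 0.98. With the slide 1 Mbd2 KD array left out, NuRD subunits had 0 in either direction, and the MBD family and the DNA methylation machinery each had 0 higher and 2 lower.

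The remaining lists added few members. Glycolysis genes had 5 of 25 higher and 0 lower, including Pfkp at 2.11 and 2.16 against 1.20 and 1.59 and Aldoc at 4.12 and 3.76 against 3.20 and 3.24, although the median was -0.07. Amino acid transporters had 3 of 22 higher, Slc38a5 among them, and 2 lower. Ppp2r2b, at 0.52, was the other PP2A subunit past the mark among 14, and S100a1, at 0.66, the other S100 gene among 11. Germline genes had 4 of 30 higher and 3 lower. Hox genes, with 23 tested, and cholesterol synthesis genes, with 24, had 0 in either direction. With the slide 1 Mbd2 KD array left out, germline genes had 0 higher and 4 lower and Hox genes 0 higher and 2 lower. Glycolysis genes then had 3 higher and 0 lower, amino acid transporters 2 higher and 1 lower, PP2A subunits 1 higher and 0 lower, S100 genes 1 higher and 1 lower, and cholesterol synthesis genes again 0 in either direction.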

How the data were processed

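Expression was measured on 12 one-colour Agilent arrays, 1 sample each, and grouped by sample labels. The authors deposited scanner output of Agilent Feature Extraction 10.7.1.1, whose processed intensity has the background subtracted and no normalization across arrays. The deposited series table holds log2 values set against EGFP KD. Its differences had a slope of 0.111 on the log2 signal differences (Pearson r 0.914 and 0.913 on the 2 slides), so its scale is not plain log2 and was not settled here, and it was used as an alternative only.

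Control spots (1377) and outlier spots were left out. Each array's intensities were scaled to their 75th percentile and floored at 0.0344 before log2 was taken, and replicate spots of the 39429 probes were averaged. A probe had to be well above background on both Mbd3 KD or both Mbd2 KD arrays, and the brightest such probe stood for its gene, which left 26302 genes, 17591 with a symbol from a RefSeq gene table. limma 3.58.1 in R 4.3.3 was fitted to the 10 knockdown arrays with 5 groups and slide as a block. The contrast is the mean of the 2 within-slide differences. Of the other 6 arrays, those of Dnmt1 KD and Tet1 KD share only in the estimate of the spread in this fit. Those of Chd4 KD alone join slide 2 to slide 3, so they leave no residual and add nothing to that estimate. Where an array of Mbd3 KD or Mbd2 KD is left out, the Dnmt1 KD arrays also help to set the offset between the slides. Dnmt1 KD values therefore enter the differences and list counts of those fits. A gene was called at an adjusted p under 0.05 (Benjamini-Hochberg, over all genes tested). Folds are 2 to the power of the fitted log2 difference and understate changes near the floor. The steps were tested on simulated data.

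For Mbd3 KD and Mbd2 KD, replicates of one number share a slide in the scanner headers, and the deviations of replicate 1 from the group mean correlated between the KDs (r = 0.625 over 26199 genes), so the numbers were taken as pairing the arrays. The members, the 30 gene lists and the tests were chosen with earlier results of these data known. Named were the targeted genes and Tet1 by every probe, all called genes, 6 uncalled genes in each direction by the smaller of their 2 within-slide differences, the called and 2 leading members of each list, and MBD and NuRD genes. One MBD family member is not reported here. Further list members were chosen after their values were seen. The number of arrays limits the precision. Python 3.11.15 was used for tables and figures.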

Additional observations from a re-analysis of the deposited data

How the results depend on the processing

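The count of 11 called genes depended on how the spread was estimated. It was 10 with no replicate block, 107 with all 12 arrays and slide as a block, 65 with all 12 arrays and no block, 269 with slide as a random block and 32 with a trended and robust prior. With only the 4 arrays compared it was 0, with the replicate block (1706 genes at an unadjusted p under 0.05, smallest adjusted p 0.69) and without it (760). It was also 0 without the 2 Tet1 KD arrays (1960), with no filter on dim probes (3250), no floor (2462) or probes averaged per gene (2522). Quantile normalization gave 5, normexp background correction 2, and the values deposited by the authors 668, of 7425 genes. Leaving out 1 of the 4 arrays gave between 0 and 324 calls, 324 without Mbd3 KD replicate 2 and 0 without Mbd3 KD replicate 1 or the array labelled Mbd2 KD replicate 1. At an adjusted p under 0.10 there were 73 calls, and at an unadjusted p under 0.05 there were 2466. The log2 difference of Mbd3 lost its call at -2.87 with no filter, no floor, without the Tet1 KD arrays and with only the 4 arrays compared, blocked or not, and at -2.85 as the mean of its probes. With every probe tested, its brighter probe kept the call (adjusted p 0.044) and its dimmer, at -2.82, did not pass (0.093). With 1 array left out it lay between -2.95 and -2.79 and lost its call without Mbd2 KD replicate 1 (0.056), Mbd2 KD replicate 2 (0.060) or Mbd3 KD replicate 1 (0.50). Several of the 21 alternatives changed only the model of the spread, so a difference and its direction could not change there. Of the called genes, the next in rank, Mbd2 and Tet1, none reversed its direction under the 21 alternatives, of which 19 or 20 measured Evx1, Vrtn, Wt1 and Mal. The called genes and those next in rank were named on sharing their sign, with a wide gap, on both slides. Their lack of reversal is therefore not a further result. The other genes named in the lists were not followed one by one. Called genes lost their call in between 9 of the alternatives (Slc38a5) and 12 (Slc45a1 and Wt1). The correlation between the slides was 0.501 against 0.185 in the deposited table, which holds fewer genes, and the cause was not tested.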
